A study of Mus musculus with 12 samples.

Results

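The 10 genes described here mark the cells that line the blood vessels of the liver. They are the sinusoidal endothelial markers Stab1, Stab2, Lyve1 and Clec4g, the vessel markers Esm1 and Vwf, the pan-endothelial genes Pecam1, Kdr and Cdh5, and the water channel gene Aqp1. They were chosen by name from 19012 gene symbols, with the transcript of the longest exon length kept for each, and all 10 were among the 11351 genes that passed a filter on low values. Levels are given as RPKM, which divides the reads of a gene by its exon length in kilobases and by the depth of its library, so they can be set side by side between genes. Positions are those of the kept RefSeq transcripts in the deposited tables, on the mouse build mm9, and whether they count from 0 or 1 is not stated.

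Polyadenylated RNA was sequenced from 12 mouse samples. There were 4 liver tumors of E2F7/8 DKO mice, 4 livers of E2F7/8 DKO mice and 4 livers of wild-type (wt) mice. DKO stands for double knockout, by the name of the transcription factor genes E2f7 and E2f8. Each name of a deposited table carries a code, and these codes pair each DKO tumor with the DKO liver of the same number, so the DKO livers are read here as liver of tumor-bearing animals 1 to 4, while the wild-type codes belong to other animals. The Cre driver or germline nature of the deletion, the deleted exons, age, sex and strain are not given in the sources used here. Whether vessel cells carry the deletion is therefore not known. Nothing beyond the codes says that replicates are separate animals, so p-values may measure technical spread only.

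The endothelium of the liver sinusoid is a thin, fenestrated lining that takes up waste molecules from portal blood through scavenger receptors. It carries surface receptors that most other vessels lack and has little of the classical vessel marker von Willebrand factor. Growing tumors recruit vessels through vascular endothelial growth factor (VEGF), and the leading cells of new sprouts, called tip cells, secrete the proteoglycan encoded by Esm1.

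The libraries held 7.985 to 15.96 M reads (M, mega), and 1 read in a transcript of 2 kb corresponded to 0.0313 to 0.0626 RPKM. Summed over whole transcripts, E2f7 was at 0.036 to 0.259 RPKM in DKO tumors, 0.211 to 0.400 RPKM in DKO livers and 0.103 to 0.2 RPKM in wild-type livers. E2f8 was at 1.66 to 12.2 RPKM in DKO tumors, 2.80 to 20.8 RPKM in DKO livers and 1.66 to 4.30 RPKM in wild-type livers, so neither gene was lower in the DKO groups. These sums include any exons left by the deletion, which is not described, so they do not check the genotype labels and the groups keep their labelled names. The table names carry 1 of a pair of tags: L03 on wild-type livers 3 and 4 and every DKO tumor, L02 on wild-type livers 1 and 2 and every DKO liver. No source says what the tags mean; they may be sequencing lanes. Compared directly, DKO tumor against DKO liver cannot be told apart from the tag. A fit with the tag as a covariate separates them only through the wild-type livers, which carry both tags.

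The promoters of 4 genes are shown because these genes had 1 direction between DKO tumor and DKO liver in every animal: Esm1 was higher in the tumor of all 4 animals, and Clec4g, Stab2 and Aqp1 were lower in the tumor of all 4. They come from RefSeq on the build GRCm38.p6, which held 6 of the 10 genes, and run from 250 bases before to 50 bases after the gene start, 5′ to 3′ on the gene's strand. Capitals mark GGAAG or its reverse complement CTTCC, 1 form of the sites bound by ETS factors, a family active in endothelial cells.
Esm1, chr13:113209409-113209708, plus strand: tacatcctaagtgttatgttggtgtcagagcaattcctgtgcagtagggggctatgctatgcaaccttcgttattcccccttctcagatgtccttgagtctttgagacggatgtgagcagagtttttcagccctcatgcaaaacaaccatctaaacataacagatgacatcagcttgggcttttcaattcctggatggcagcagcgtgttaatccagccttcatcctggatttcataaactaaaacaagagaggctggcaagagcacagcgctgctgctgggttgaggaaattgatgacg
Clec4g, chr8:3720602-3720901, minus strand: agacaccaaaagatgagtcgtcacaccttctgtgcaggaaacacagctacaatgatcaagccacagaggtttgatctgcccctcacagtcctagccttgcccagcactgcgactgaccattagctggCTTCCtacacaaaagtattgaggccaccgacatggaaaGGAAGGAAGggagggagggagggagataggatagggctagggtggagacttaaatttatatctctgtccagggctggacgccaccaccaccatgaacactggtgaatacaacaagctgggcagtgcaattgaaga
Stab2, chr10:87007893-87008192, minus strand: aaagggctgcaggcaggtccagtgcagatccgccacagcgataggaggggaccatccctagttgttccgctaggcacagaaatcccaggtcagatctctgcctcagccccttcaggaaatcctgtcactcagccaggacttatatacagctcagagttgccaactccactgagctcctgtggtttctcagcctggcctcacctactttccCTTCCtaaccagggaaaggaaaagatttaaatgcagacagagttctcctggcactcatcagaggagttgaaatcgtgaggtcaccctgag
Aqp1, chr6:55336049-55336348, plus strand: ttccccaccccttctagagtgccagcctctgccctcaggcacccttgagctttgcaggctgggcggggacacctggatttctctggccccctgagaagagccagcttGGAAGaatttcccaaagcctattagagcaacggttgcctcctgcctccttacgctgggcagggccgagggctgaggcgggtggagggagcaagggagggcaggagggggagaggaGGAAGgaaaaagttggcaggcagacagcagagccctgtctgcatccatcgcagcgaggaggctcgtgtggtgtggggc
The Esm1 window held 0 matches, the Clec4g window 3, the Stab2 window 1 and the Aqp1 window 2, and 5 of the 6 available windows held at least 1. Of all 32851 promoters of the same length, 71.4% held a match on either strand. The GATA letters AGATAA were in 0 of the 6 windows and in 11.2% of all promoters. The E2F letters TTTNGCGC, in which N is any base, were in 0 of the 6 and in 1.38% of all promoters. Other forms of these sites were not searched, so 0 matches does not mean that a window lacks a site. These are letter matches in short windows and carry no measurement of binding.

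DKO tumors held more Esm1 RNA than wild-type livers, and of the 10 genes only Esm1 passed the test between any 2 groups. The sinusoidal markers Clec4g and Stab2, and Aqp1, had their lowest group mean in DKO tumors and their highest in DKO livers, without passing the test. For the pan-endothelial genes Pecam1, Kdr and Cdh5 the DKO tumor mean was not below the wild-type mean. In bulk RNA, fewer cells of a type and less RNA per cell cannot be told apart.

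**Figure D1:**
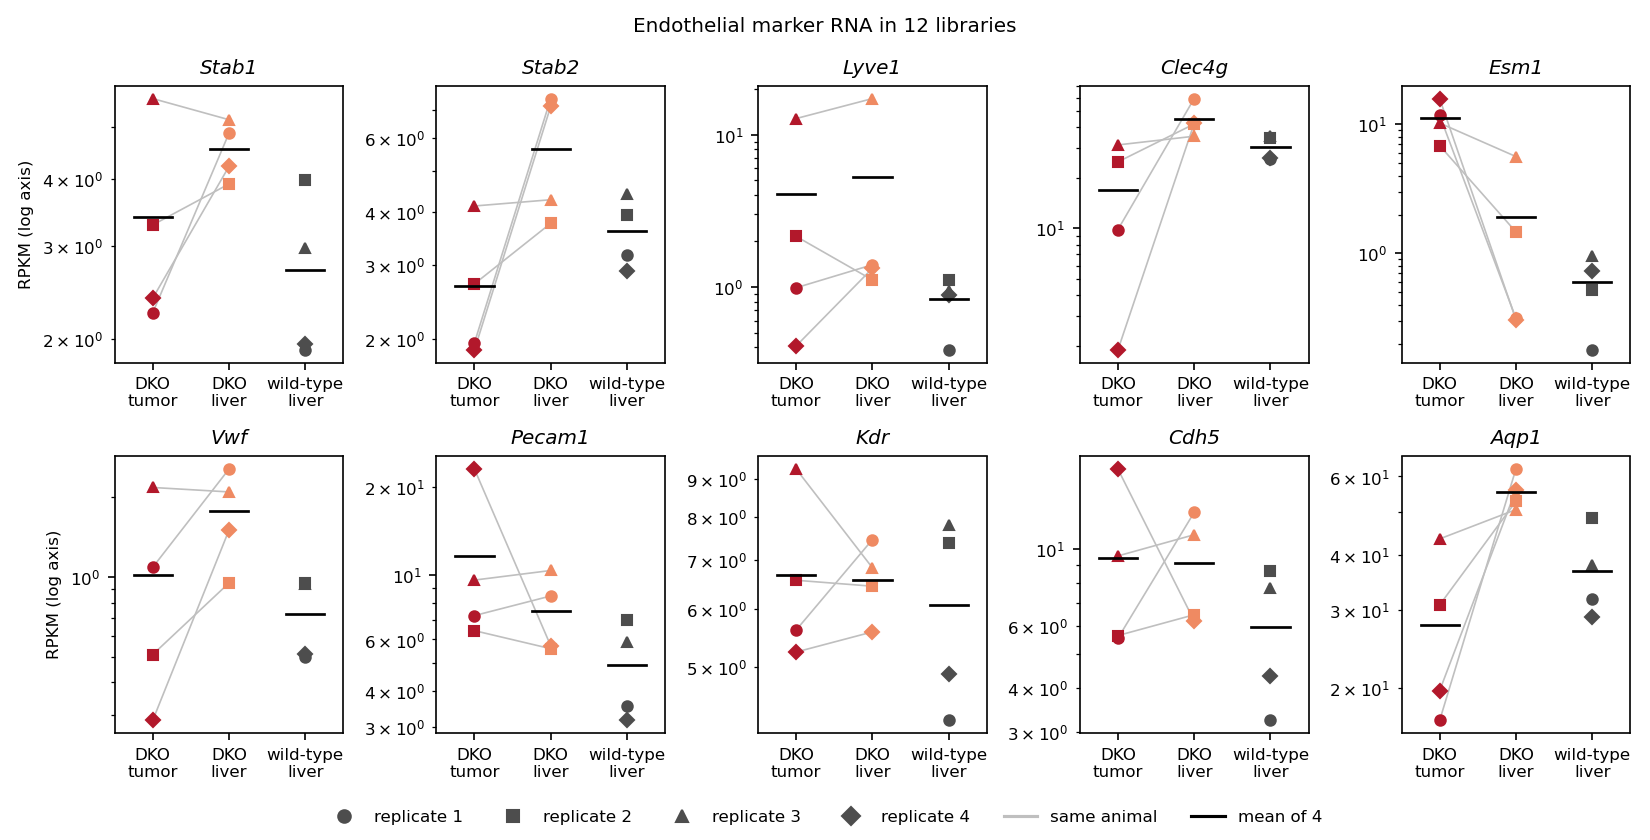
RPKM (log axis) of the 10 endothelial markers in DKO tumor, DKO liver and wild-type liver. Symbols are replicates, grey lines join the tumor and the liver of 1 animal, and black bars are means of 4 libraries; Esm1 runs from 6.85 to 15.9 RPKM in DKO tumors, above every DKO liver and wild-type liver.

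Differences were tested with limma on log2(RPKM + 1) over all 12 libraries, two-sided, with Benjamini-Hochberg adjustment over the 11351 genes and a threshold of 0.05. Between DKO tumor and wild-type liver 1.9% of all tested genes passed, against 1 of the 10 markers. Of all tested genes, 1.23% were called higher, which is the background for that 1 call, and 0.67% lower, where 0 markers were. Between DKO liver and wild-type liver 0% of genes passed with limma, 12.4% had an unadjusted p under 0.05, and 0 of the 10 markers passed. Between DKO tumor and DKO liver 0.00881% of genes passed, which is 1 gene, and 0 markers did. With the animal as a block this background was 0.625%, or 71 genes, and still 0 markers. With 4 libraries against 4, an exact permutation test cannot give a two-sided p under 0.0286. Its splits did not keep the pairing of DKO tumor and DKO liver by animal.

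Esm1 encodes endocan, a proteoglycan secreted by tip cells. It lies on chromosome 13 (chr13:113999866-114008311, plus strand). It had 11.7, 6.85, 10.2 and 15.9 RPKM in DKO tumors 1 to 4, against 0.315, 1.47, 5.63 and 0.308 RPKM in DKO livers 1 to 4 and 0.179, 0.520, 0.960 and 0.735 RPKM in wild-type livers 1 to 4. Every DKO tumor was above every liver of either genotype, and among the livers DKO liver 3 stood highest. Against wild-type liver, groups did not overlap in 5.57% of all tested genes in the higher direction and 6.32% in the lower; among the markers only Esm1 did so. The counts behind these values were 1386 reads in the DKO tumors, 191 in the DKO livers and 63 in the wild-type livers. Whether cells other than endothelium, such as tumor cells, held Esm1 RNA was not tested.

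The means of Esm1 were 11.2 ± 3.73 RPKM in DKO tumors, 1.93 ± 2.53 RPKM in DKO livers and 0.598 ± 0.333 RPKM in wild-type livers (SD, n = 4 each). Against wild-type liver, DKO tumors were 18.7-fold higher by the means. The log2 difference was 2.90 ± 0.44 (SE) with a limma adjusted p of 0.0138, and the two-sided exact permutation p was 0.0286. The call held in 10 of 12 fits that left out 1 library, and was lost without wild-type liver 1 (limma adjusted p = 0.0544) and without wild-type liver 4 (0.0598). Among L03 libraries alone the difference was 2.67 with a limma adjusted p of 0.0185, and with the tag as a covariate over all libraries it was 2.67 with 0.173. With no filter on low values its limma adjusted p was 0.0989.

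Between DKO tumor and DKO liver, Esm1 differed by 2.35 ± 0.44 (SE) on the log2 scale, 5.79-fold by the means. The limma adjusted p was 0.0749, and 0.0963 with the animal as a block. The groups did not overlap, as was the case for 2.12% of all tested genes in the higher direction. The two-sided exact permutation p, which ignored the pairing by animal, was 0.0286. The DKO tumor to DKO liver ratio was 37.3 in animal 1, 4.66 in animal 2, 1.82 in animal 3 and 51.5 in animal 4, so it was above 1 in 4 of 4 animals and closest to 1 in animal 3. Without DKO liver 3 the log2 difference was 2.86 and the limma adjusted p 0.00129, and without DKO tumor 3 the adjusted p was 0.0362. Of 12 fits that left out 1 library only these 2 passed. Over the 12 the log2 difference went down to 2.08 and the limma adjusted p up to 0.235. With the tag as a covariate the log2 difference was 1.89 ± 0.78 (SE) and did not pass. DKO liver against wild-type liver gave 0.55 ± 0.44 (SE, limma adjusted p = 0.611), which without DKO liver 3 was 0.04.

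**Figure D2:**
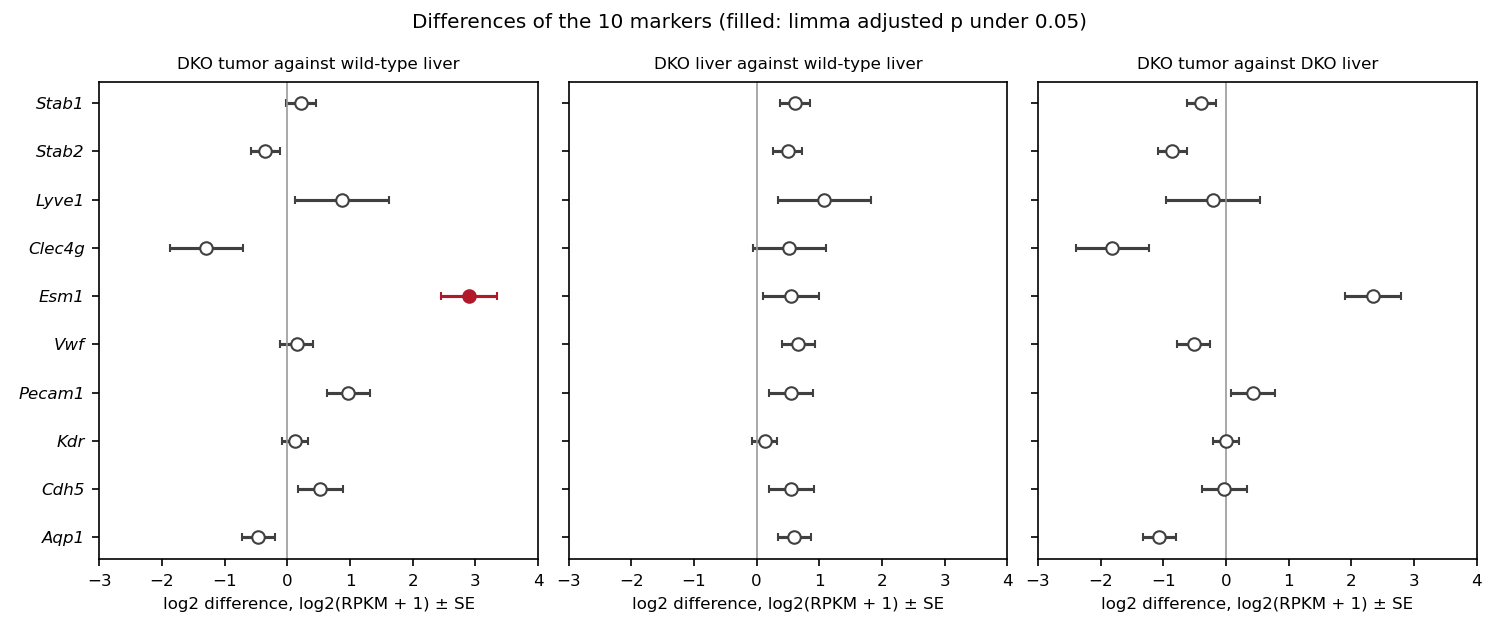
Log2 difference of each marker on the log2(RPKM + 1) scale with its SE, for DKO tumor over wild-type liver, DKO liver over wild-type liver and DKO tumor over DKO liver. The single filled point is Esm1 at 2.90 in DKO tumor against wild-type liver; all 10 points lie right of 0 in DKO liver against wild-type liver.

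Vwf encodes von Willebrand factor, which larger vessels, and also platelets, store and release for clotting. It lies at chr6:125502980-125636694 on the plus strand. It had 1.09, 0.509, 2.18 and 0.287 RPKM in DKO tumors, 2.56, 0.950, 2.10 and 1.5 RPKM in DKO livers, and 0.497, 0.947, 0.945 and 0.510 RPKM in wild-type livers. All DKO livers were above all wild-type livers, narrowly at the closest, while the DKO tumors spanned both groups. The 4 livers of the DKO animals averaged 1.78 ± 0.701 RPKM and the wild-type livers 0.725 ± 0.255 RPKM (SD, n = 4 each), a log2 difference of 0.66 ± 0.26 (SE, limma adjusted p = 0.359). Groups that do not overlap were found in 5.62% of all tested genes in that direction, and the two-sided exact permutation p was 0.0286. Against wild-type liver, DKO tumors differed by 0.15 ± 0.26. DKO tumors against DKO livers gave -0.52 ± 0.26 (limma adjusted p = 0.356).

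Platelets also hold Vwf RNA, so their markers are given beside it. The summed level of 8 platelet genes was 4.13 to 7.26 RPKM in DKO tumors, 4.89 to 31.6 RPKM in DKO livers and 2.60 to 3.78 RPKM in wild-type livers. The highest sum and the highest Vwf were both in DKO liver 1, but DKO tumor 4, with the lowest Vwf of the 12 libraries, had a sum of 6.55 RPKM, above every wild-type liver. Of these genes 4 passed the filter and all 4 had a positive difference in DKO liver against wild-type liver, where 60.5% of all tested genes were positive. Their median was 0.76 against 0.08 over all genes, with 0 calls. The chemokine Ppbp, stored in platelet granules, averaged 10.2 ± 7.54 RPKM in DKO livers and 1.78 ± 0.444 RPKM in wild-type livers (limma adjusted p = 0.226), and the integrin gene Itga2b averaged 1.75 ± 1.20 RPKM in DKO livers and 0.520 ± 0.326 RPKM in wild-type livers (0.312). The part of platelets in the Vwf values was not tested.

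Clec4g encodes LSECtin, a C-type lectin of sinusoidal endothelium. It lies at chr8:3716076-3720650 on the minus strand. It had 9.84, 24.9, 31.4 and 1.90 RPKM in DKO tumors 1 to 4, against 59.1, 41.8, 35.3 and 42.1 RPKM in DKO livers 1 to 4 and 25.9, 34.2, 35.7 and 26.4 RPKM in wild-type livers 1 to 4. Every DKO tumor was below every DKO liver, whereas DKO tumor 3 lay within the wild-type range and the other 3 tumors below it, DKO tumor 2 narrowly. DKO tumors averaged 17.0 ± 13.5 RPKM, DKO livers 44.6 ± 10.2 RPKM and wild-type livers 30.5 ± 5.14 RPKM (SD, n = 4 each).

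The mean of Clec4g in DKO tumors was 0.381 of that in DKO livers. Its log2 difference was -1.82 ± 0.58 (SE), with a limma adjusted p of 0.170 and 0.202 with the animal as a block. Of all tested genes, 4.08% did not overlap in the lower direction between DKO tumor and DKO liver; among the 10 markers these were Clec4g and Aqp1. In either direction it was 6.2% of all genes, against 3 of the 10 markers. The two-sided exact permutation p of Clec4g, with the pairing by animal ignored, was 0.0286. The tumor to liver ratio was 0.166, 0.595, 0.888 and 0.045 in animals 1 to 4, below 1 in 4 of 4. Against wild-type liver the log2 difference was -1.29 ± 0.58 (limma adjusted p = 0.251), and -0.58 without DKO tumor 4. DKO livers differed from wild-type livers by 0.52 ± 0.58 (limma adjusted p = 0.722).

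Stab2 encodes stabilin-2, a scavenger receptor for hyaluronan. It lies at chr10:86303954-86470686 on the minus strand. It had 1.96, 2.70, 4.14 and 1.88 RPKM in DKO tumors, against 7.44, 3.76, 4.28 and 7.13 RPKM in DKO livers and 3.16, 3.95, 4.43 and 2.89 RPKM in wild-type livers. DKO tumors 1, 2 and 4 were below all 8 livers, and DKO tumor 3 was within the range of both liver groups. DKO tumors averaged 2.67 ± 1.05 RPKM and DKO livers 5.65 ± 1.90 RPKM (SD, n = 4 each), a log2 difference of -0.85 ± 0.23 (SE, limma adjusted p = 0.119; 0.198 with the animal as a block). The ratio of tumor to liver was 0.263, 0.718, 0.966 and 0.264 in animals 1 to 4. Wild-type livers averaged 3.61 ± 0.707 RPKM, from which DKO tumors differed by -0.36 ± 0.23 (limma adjusted p = 0.435) and DKO livers by 0.50 ± 0.23 (0.402). Leaving out DKO tumor 3 gave 4 called markers in DKO tumor against DKO liver with limma: Stab2 at -1.03 (adjusted p = 0.0361), Clec4g at -2.26 (0.049), Aqp1 at -1.30 (0.0169) and Esm1 at 2.37 (0.0362). That fit called 363 genes in all.

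Stab1 encodes stabilin-1, a related scavenger receptor that some macrophages also carry. It lies at chr14:31952202-31981826 on the minus strand. It had 2.24, 3.28, 5.66 and 2.39 RPKM in DKO tumors, 4.87, 3.91, 5.17 and 4.22 RPKM in DKO livers, and 1.91, 3.97, 2.97 and 1.96 RPKM in wild-type livers. The 3 groups overlapped, and the DKO livers were the tightest and held the highest mean, 4.54 ± 0.576 RPKM, against 3.39 ± 1.58 RPKM in DKO tumors and 2.70 ± 0.977 RPKM in wild-type livers (SD, n = 4 each). DKO tumors differed from wild-type livers by 0.22 ± 0.23 (SE) and from DKO livers by -0.39 ± 0.23 on the log2 scale, with limma adjusted p of 0.668 and 0.427. The pair of stabilins therefore had opposite signs against wild-type liver, neither of them called. The sign for Stab1 rested on DKO tumor 3: without it the difference was -0.000684.

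Lyve1 encodes a hyaluronan receptor of lymphatic vessels and of sinusoidal endothelium. It lies at chr7:117994120-118006466 on the minus strand. It had 0.986, 2.14, 12.8 and 0.408 RPKM in DKO tumors 1 to 4, 1.40, 1.11, 17.3 and 1.32 RPKM in DKO livers 1 to 4, and 0.384, 1.11, 0.936 and 0.889 RPKM in wild-type livers 1 to 4. Both samples of animal 3 stood far above the other 10 libraries, which held at most 2.14 RPKM. Means were 4.08 ± 5.84 RPKM in DKO tumors, 5.28 ± 8.00 RPKM in DKO livers and 0.829 ± 0.311 RPKM in wild-type livers (SD, n = 4 each). DKO liver against wild-type liver gave 1.08 ± 0.75 (SE, limma adjusted p = 0.549), and 0.33 without DKO liver 3. DKO tumor against wild-type liver gave 0.88 ± 0.75 (limma adjusted p = 0.572), and 0.19 without DKO tumor 3. DKO tumor against DKO liver gave -0.21 ± 0.75 (limma adjusted p = 0.924).

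Several lists of other cell markers were high in animal 3. Many other genes were high in its liver: of all tested genes, 29.5% were highest of the 12 libraries in DKO liver 3. In DKO tumor 3 this was 4.91%, within the 1.68% to 15.4% of the other DKO tumors. The summed level of 9 cholangiocyte genes was 128 RPKM in DKO tumor 3 and 185 RPKM in DKO liver 3, against 31.7 to 47.2 RPKM in the other DKO tumors, 42.2 to 61.6 RPKM in the other DKO livers and 36.5 to 49.2 RPKM in wild-type livers. The bile duct and matrix protein gene Spp1 alone had 103 and 154 RPKM in the tumor and the liver of that animal. Summed stellate cell and pericyte genes were highest in the same animal within each DKO group, at 111 RPKM in the tumor and 166 RPKM in the liver. Not all lists followed: summed red cell genes were lowest of the 12 libraries in DKO tumor 3, at 116 RPKM, and summed Kupffer cell genes were highest in DKO liver 1, at 847 RPKM. Of the lymphatic genes, the regulator Prox1, which hepatocytes also express, averaged 13 ± 1.42 RPKM in DKO tumors, 14.7 ± 2.74 RPKM in DKO livers and 14.8 ± 4.84 RPKM in wild-type livers, and the lymphatic chemokine Ccl21a was listed at 0 in all 12 libraries. The receptor Flt4 had 6.73 RPKM in DKO tumor 3 and 6.15 RPKM in DKO liver 3, both the highest of their group, against 2.09 to 5.03 RPKM in wild-type livers. What these cell types contribute to the Lyve1 values was not tested.

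Pecam1, Kdr and Cdh5 are expressed by nearly all endothelial cells and encode the adhesion molecule CD31, the main VEGF receptor of endothelium, VEGFR2, and the junction protein VE-cadherin. They lie at chr11:106515531-106576594 (Pecam1, minus strand), chr5:76329298-76374452 (Kdr, minus strand) and chr8:106625524-106668401 (Cdh5, plus strand). Pecam1 had 7.24, 6.43, 9.59 and 23.0 RPKM in DKO tumors, 8.46, 5.58, 10.3 and 5.71 RPKM in DKO livers, and 3.56, 6.99, 5.88 and 3.17 RPKM in wild-type livers. The DKO tumors overlapped both liver groups, but DKO tumor 4 was more than any other library by a wide margin. Against wild-type liver the log2 difference of DKO tumors was 0.97 ± 0.35 (SE), with a limma adjusted p of 0.149 and a two-sided exact permutation p of 0.0571. It was 0.61 without DKO tumor 4. Against DKO liver it was 0.43 ± 0.35 (limma adjusted p = 0.569), and 0.06 without that tumor.

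Cdh5 repeated this shape, with 5.55, 5.65, 9.53 and 16.8 RPKM in DKO tumors, 12.7, 6.48, 11 and 6.22 RPKM in DKO livers, and 3.24, 8.62, 7.72 and 4.34 RPKM in wild-type livers. Again DKO tumor 4 was the highest of 12 and the groups overlapped. DKO tumors differed from wild-type livers by 0.53 ± 0.36 (SE) and from DKO livers by -0.03 ± 0.36, with limma adjusted p of 0.458 and 0.980. Kdr varied least of the 10 genes between groups, with 5.61, 6.56, 9.30 and 5.24 RPKM in DKO tumors, 7.45, 6.44, 6.82 and 5.58 RPKM in DKO livers, and 4.23, 7.38, 7.80 and 4.89 RPKM in wild-type livers. DKO tumor 4 was not high for Kdr but the lowest of the DKO tumors. Its differences were 0.13 ± 0.20 (SE) for DKO tumors over wild-type livers, 0.13 ± 0.20 for DKO livers over wild-type livers and 0.00 ± 0.20 for DKO tumors over DKO livers, with limma adjusted p of 0.8, 0.814 and 0.996.

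Aqp1 encodes a water channel of liver endothelium that bile duct cells and red cells also carry. It lies at chr6:55286292-55298548 on the plus strand. It had 16.9, 30.8, 43.4 and 19.7 RPKM in DKO tumors, 62.4, 52.7, 50.5 and 55.9 RPKM in DKO livers, and 31.7, 48.3, 37.9 and 28.8 RPKM in wild-type livers. The DKO livers were above all libraries of both other groups, and the DKO tumors overlapped the wild-type livers. DKO tumors averaged 27.7 ± 12.1 RPKM and DKO livers 55.4 ± 5.15 RPKM (SD, n = 4 each), which is 0.5 by the means and -1.06 ± 0.26 (SE) on the log2 scale. The limma adjusted p was 0.0877, and 0.143 with the animal as a block. The two-sided exact permutation p, with the pairing by animal ignored, was 0.0286. The tumor to liver ratio was 0.271, 0.584, 0.859 and 0.353 in animals 1 to 4. DKO livers differed from wild-type livers, which averaged 36.7 ± 8.63 RPKM, by 0.60 ± 0.26 (limma adjusted p = 0.387). Cholangiocyte genes, summed over 9 members, ranged from 31.7 to 128 RPKM in DKO tumors, 42.2 to 185 RPKM in DKO livers and 36.5 to 49.2 RPKM in wild-type livers, with the highest value of both DKO groups in animal 3, where Aqp1 was highest among the tumors and lowest among the DKO livers. Red cell genes, summed over 8 members, ranged from 116 to 449 RPKM in DKO tumors, 154 to 272 RPKM in DKO livers and 148 to 247 RPKM in wild-type livers, and their part was not tested.

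**Figure D3:**
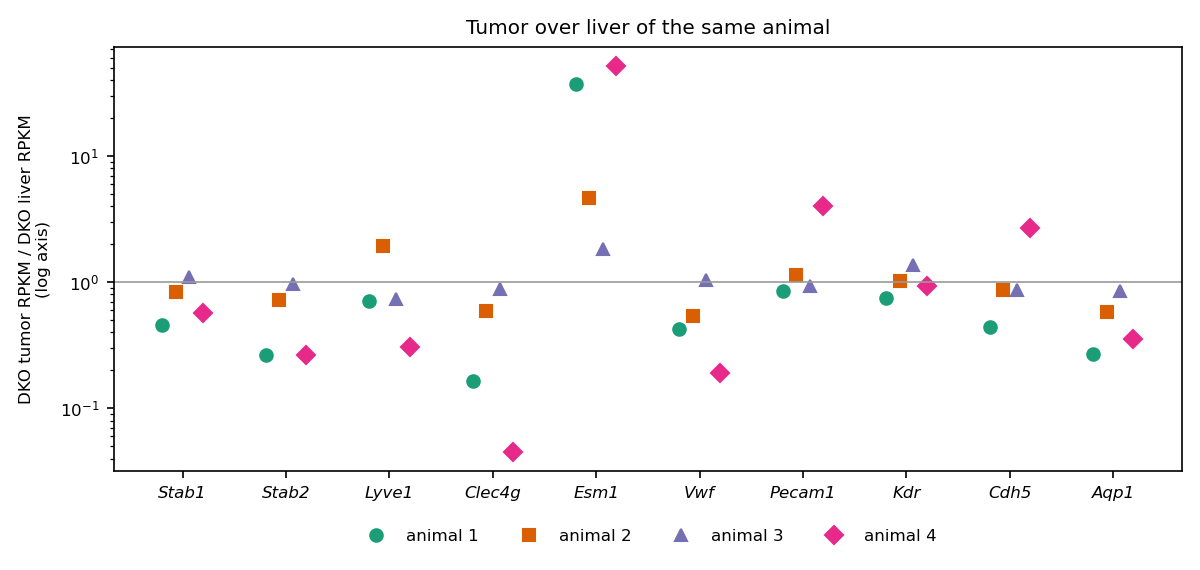
DKO tumor RPKM over DKO liver RPKM of the same animal for each marker (log axis); the grey line is a ratio of 1. Esm1 lies above 1 in all 4 animals (1.82 to 51.5), and Stab2, Clec4g and Aqp1 lie below 1 in all 4.

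Within each animal, then, Esm1 was higher in the tumor in 4 of 4 animals, and Stab2, Clec4g and Aqp1 were lower in 4 of 4. The other 6 markers had no common direction over the 4 animals. The share of all tested genes with 1 direction in all 4 animals is not given here. Animal 3 had the ratios nearest to 1 for these 4 genes, between 0.859 and 1.82. For Clec4g, Stab2 and Aqp1 the lowest ratios were in animals 1 and 4, with 0.166 and 0.045 for Clec4g. Of all tested genes, 78% were lower in the tumor in animal 1, 55.2% in animal 2, 71.5% in animal 3 and 31.4% in animal 4, and DKO tumor 1 was the lowest of 12 libraries for 34% of them. A ratio below 1 was thus shared by most genes in animal 1, whereas in animal 4 most genes were higher in the tumor.

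By level, Aqp1 and Clec4g were first and second in every group. Only a few neighbours in the order had ranges that did not overlap: Clec4g above Cdh5 in DKO livers, and Clec4g above Kdr and Stab1 above Lyve1 in wild-type livers. No neighbours were apart in DKO tumors. Esm1 was the fourth in DKO tumors, between Pecam1 and Cdh5, against rank 9 in DKO livers and rank 10, the lowest, in wild-type livers.

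Set against Pecam1 in the same library, Clec4g and Stab2 were low and Esm1 high in DKO tumors, while Stab1 and Lyve1 were low in DKO tumor 4 but not in every DKO tumor. Clec4g over Pecam1 was 1.36, 3.86, 3.27 and 0.0823 in DKO tumors, 6.99, 7.49, 3.42 and 7.38 in DKO livers, and 7.27, 4.90, 6.07 and 8.32 in wild-type livers. The DKO tumors were below all wild-type livers, and DKO tumor 2 was above DKO liver 3. Stab2 over Pecam1 was 0.270, 0.420, 0.431 and 0.0818 in DKO tumors, 0.880, 0.674, 0.414 and 1.25 in DKO livers, and 0.886, 0.564, 0.753 and 0.914 in wild-type livers. Again every DKO tumor was below every wild-type liver, while DKO liver 3 was within the tumor range. Stab1 over Pecam1 was 0.309, 0.510, 0.590 and 0.104 in DKO tumors, 0.576, 0.702, 0.5 and 0.739 in DKO livers, and 0.537, 0.568, 0.505 and 0.619 in wild-type livers. DKO tumors 1 and 4 were below all livers, and DKO tumors 2 and 3 were within the wild-type range. Lyve1 over Pecam1 was 0.136, 0.333, 1.33 and 0.0177 in DKO tumors, 0.165, 0.199, 1.67 and 0.232 in DKO livers, and 0.108, 0.158, 0.159 and 0.281 in wild-type livers. DKO tumors 2 and 3 were above every wild-type liver and DKO tumor 4 below. Esm1 over Pecam1 was 1.62, 1.07, 1.07 and 0.689 in DKO tumors, 0.0372, 0.263, 0.545 and 0.0539 in DKO livers, and 0.0502, 0.0743, 0.163 and 0.232 in wild-type livers, with all DKO tumors above all livers. These ratios are descriptions of chosen pairs and carry no test.

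**Figure D4:**
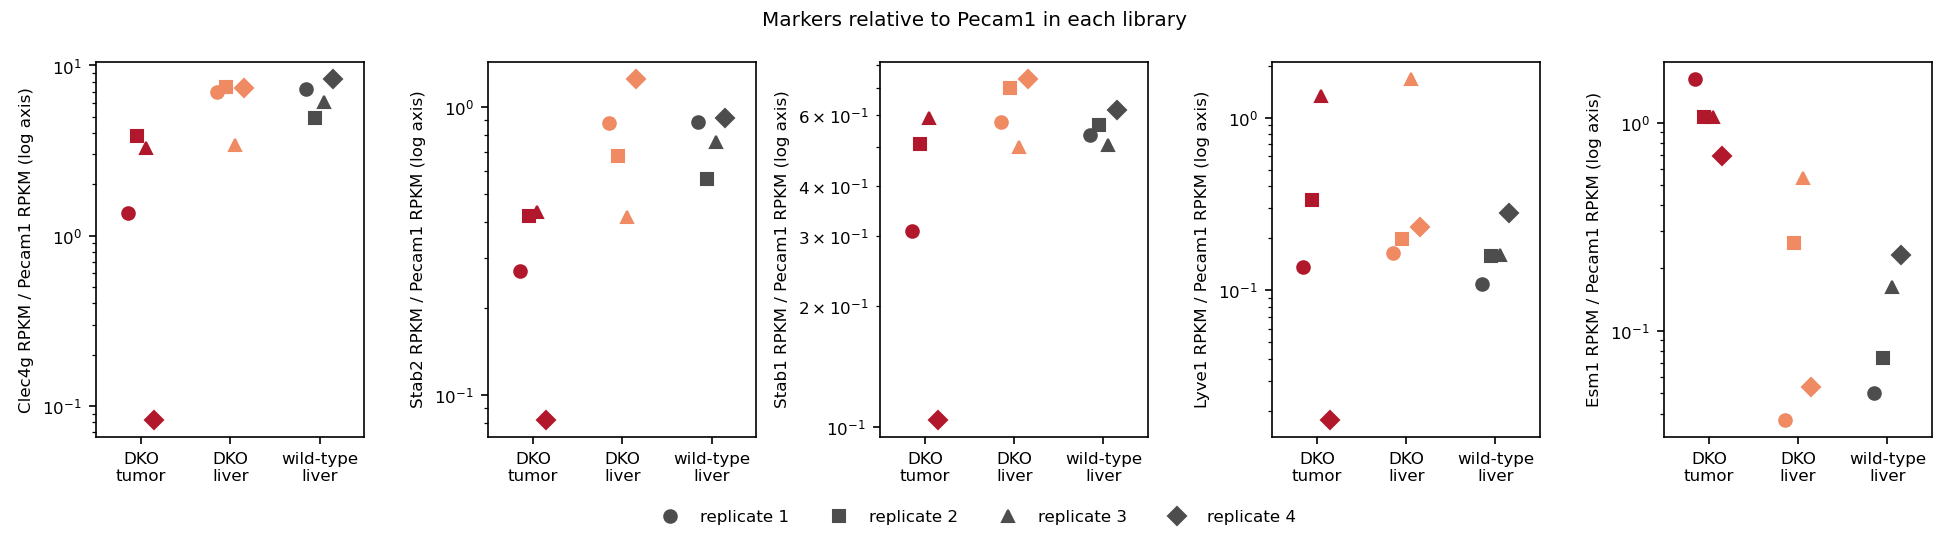
Clec4g, Stab2, Stab1, Lyve1 and Esm1 RPKM divided by Pecam1 RPKM in each library (log axes), with 4 replicates per group. For Clec4g and Stab2 the DKO tumors lie below all wild-type livers, lowest in DKO tumor 4 (0.0823 and 0.0818); for Stab1 and Lyve1 the groups overlap; for Esm1 they lie above all livers, at 0.689 to 1.62.

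The mean log2 level of the 4 sinusoidal genes minus that of the 3 pan-endothelial genes was -0.905, -0.266, 0.0858 and -2.47 in DKO tumors 1 to 4, -0.164, -0.0777, 0.25 and 0.241 in DKO livers, and -0.0161, -0.402, -0.371 and -0.0397 in wild-type livers. It was lowest in DKO tumors 4 and 1 and lay within the range of the livers in DKO tumors 2 and 3. Group means were -0.888 ± 1.13 in DKO tumors, 0.0623 ± 0.215 in DKO livers and -0.207 ± 0.207 in wild-type livers (SD, n = 4 each). For Esm1 and Vwf together the same difference was -0.460, -1.07, -0.808 and -1.58 in DKO tumors, -2.25, -1.70, -1.17 and -1.92 in DKO livers, and -1.81, -2.33, -2.05 and -1.65 in wild-type livers. The DKO tumors were above all wild-type livers, and DKO liver 3 was above DKO tumor 4. Esm1 and Vwf did not move alike. In DKO tumors the log2 difference from wild-type livers was 2.90 for Esm1 and 0.15 for Vwf, and from DKO livers 2.35 and -0.52. Vwf over Pecam1 averaged 0.117 ± 0.0925 in DKO tumors, 0.235 ± 0.0595 in DKO livers and 0.149 ± 0.0136 in wild-type livers (SD, n = 4 each).

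Across the 10 markers, 7 had a positive and 3 a negative difference in DKO tumor against wild-type liver, where 47.1% of all tested genes were positive. The median was 0.18 against -0.02 over all tested genes. Without DKO tumor 3 the median was -0.01, with 4 positive. In DKO liver against wild-type liver all 10 were positive, with a median of 0.55 against 0.08, and 60.5% of all genes were positive. All 10 were also positive within tag L02 and under both other scalings. Of the 10, 3 did not overlap, Lyve1, Vwf and Aqp1, all higher in DKO livers, against 7.59% of all genes in either direction; for Lyve1 the gap was 1.109 against 1.108 RPKM. In DKO tumor against DKO liver 2 were positive and 8 negative, where 37.2% of all tested genes were positive. The median was -0.30 against -0.09 over all genes. Dividing by median-of-ratios factors moved the median of all genes in this comparison to 0.02, and 4 markers were then positive, since Kdr and Cdh5 turned to 0.12 and 0.10. Without DKO tumor 1, or without DKO liver 3, 5 were positive and 5 negative. These comparisons share libraries and are not independent of each other.

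DKO tumor 4 was set apart among the 12 libraries in several of these genes at once. It had the lowest Clec4g and Stab2, the lowest Vwf, and the highest Pecam1, Cdh5 and Esm1. Its Pecam1 to Kdr ratio was 4.39, against 0.980 to 1.29 in the other DKO tumors. Over all tested genes DKO tumor 4 was lowest for 5.94% and highest for 15.4%. Red cell genes were also highest there in sum, at 449 RPKM, and Kupffer cell genes lowest, at 90.1 RPKM.

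Further genes of the same cell types, listed by name, gave a wider view. Of 18 other sinusoidal genes, all tested, 0 were called in any comparison. In DKO tumor against DKO liver all 18 had a negative difference, with a median of -0.68 against -0.09 over all genes, and all 18 stayed negative under both other scalings. Without DKO tumor 4 the median was -0.46, with 17 of 18 negative. The nuclease gene Dnase1l3 had 8.27, 21.6, 22.6 and 1.89 RPKM in DKO tumors, 24.8, 34.9, 21.5 and 26.4 RPKM in DKO livers, and 18.4, 24.9, 22.9 and 17.7 RPKM in wild-type livers, so DKO tumors 1 and 4 were low and tumors 2 and 3 were not. The Fc receptor gene Fcgr2b averaged 13.1 ± 6.59 RPKM in DKO tumors, 18.8 ± 3.56 RPKM in DKO livers and 19.5 ± 4.07 RPKM in wild-type livers. Against wild-type liver the list's median was -0.46 in DKO tumors, with 15 of 18 negative, but -0.16 without DKO tumor 4 and -0.80 without DKO tumor 3. In DKO livers it was 0.32, with 15 of 18 positive, 12 with median-of-ratios scaling and 11 with quantile normalization.

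Of 26 other pan-endothelial genes 23 were tested and 0 were called. Their median was 0.28 in DKO tumor against wild-type liver (19 of 23 positive) and 0.37 in DKO liver against wild-type liver (23 of 23 positive). In DKO tumor against DKO liver it was -0.05, with 9 positive and 14 negative, a split that turned to 12 and 11 with median-of-ratios scaling; without 1 library the median lay between -0.13 and 0.06. Leaving out DKO tumor 4 gave 0.17 for the median of DKO tumors over wild-type livers, and leaving out DKO tumor 1 gave 0.43. The TGF-beta co-receptor endoglin (Eng) averaged 15.3 ± 11 RPKM in DKO tumors, 25 ± 14.0 RPKM in DKO livers and 13.6 ± 3.34 RPKM in wild-type livers, and the adrenomedullin receptor component Ramp2 6.70 ± 2.85 RPKM in DKO tumors, 8.07 ± 2.56 RPKM in DKO livers and 5.62 ± 1.18 RPKM in wild-type livers. Vein, artery and capillary genes, 16 of 21 tested, had 0 calls and medians of 0.39 in DKO tumors and 0.47 in DKO livers against wild-type livers, and of 0.02 between DKO tumors and DKO livers. The first was 0.21 without DKO tumor 3, the second 0.28 without wild-type liver 4, and the third between -0.28 and 0.37 without 1 library. Among them Ly6a averaged 29.0 ± 15.5, 28.2 ± 14.0 and 18.2 ± 10.9 RPKM, and Plvap, which forms the diaphragms of fenestrae, 13.8 ± 8.38, 22.1 ± 18.3 and 10.1 ± 2.93 RPKM, in DKO tumors, DKO livers and wild-type livers.

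Tip cell and sprouting genes, 17 of 20 tested, had 2 calls in DKO tumor against wild-type liver, both higher, where 1.23% of all tested genes were called higher, and a median of 0.90 with 16 of 17 positive. The basement membrane gene Nid1 had 63.1, 28.5, 22.9 and 32.4 RPKM in DKO tumors, 5.65, 7.71, 18.5 and 16.7 RPKM in DKO livers, and 3.18, 5.46, 4.25 and 3.19 RPKM in wild-type livers. All DKO tumors were above all livers, and all DKO livers above all wild-type livers. Which cells held the Nid1 RNA, tumor cells included, was not tested. Nid1 rose by 2.83 ± 0.37 (SE, limma adjusted p = 0.00472) in DKO tumors against wild-type livers, a call that held in 12 of 12 fits without 1 library but not with the tag as a covariate (2.90, limma adjusted p = 0.0781). Its difference from DKO livers was 1.56 ± 0.37 (limma adjusted p = 0.0836; 0.169 with the animal as a block). The transcription factor gene Ets2, expressed in many cell types, rose by 1.12 ± 0.26 (limma adjusted p = 0.0472), which held in 2 of 12 such fits. In DKO tumor against DKO liver the list's median was 0.38 with 14 of 17 positive; leaving out DKO tumor 4 made it 0.11, DKO liver 3 0.73, DKO tumor 1 0.61, DKO tumor 2 0.58 and DKO liver 4 0.24. Against wild-type liver the median in DKO tumors was 0.60 without DKO tumor 4, and in DKO livers it was 0.50, or 0.19 without DKO liver 3.

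**Figure D5:**
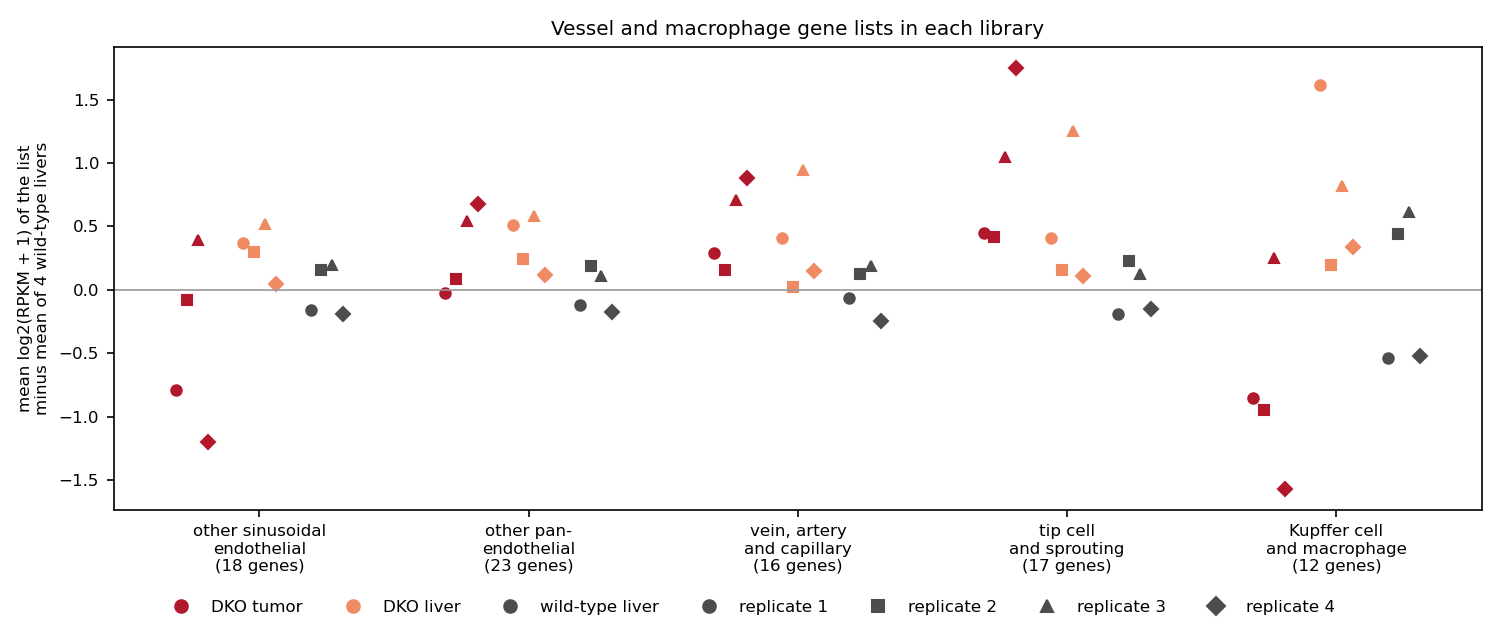
Mean log2(RPKM + 1) of the tested genes of 5 lists in each library, minus the mean of the 4 wild-type livers. DKO tumor 4 is the lowest library for other sinusoidal genes (-1.20) and for Kupffer cell genes (-1.57) and the highest for tip cell genes (1.75).

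VEGF and angiopoietin genes, 10 of 13 tested, had 0 calls, with medians of 0.14 for DKO tumors and 0.23 for DKO livers over wild-type livers, and -0.10 for DKO tumors over DKO livers. The ligand Vegfa averaged 16.5 ± 3.85 RPKM in DKO tumors, 17.6 ± 2.03 RPKM in DKO livers and 18.9 ± 4.62 RPKM in wild-type livers, and its co-receptor Nrp1 13 ± 4.87 RPKM in DKO tumors, 18.7 ± 6.43 RPKM in DKO livers and 19.3 ± 1.36 RPKM in wild-type livers. Notch pathway genes of vessels, 10 of 12 tested, also had 0 calls. Their median was 0.53 in DKO tumor against wild-type liver, where 5 of 10 did not overlap and were higher, against 5.57% of all tested genes. In DKO liver against wild-type liver it was 0.375 with 9 of 10 positive, where 3 of 10 did not overlap and were higher, against 5.62% of all tested genes, and in DKO tumor against DKO liver it was 0.03 with 0 that did not overlap. The median for DKO livers over wild-type livers was 0.215 without DKO liver 3. The Notch target Hes1 averaged 9.5 ± 2.85 RPKM in DKO tumors, 9.86 ± 2.51 RPKM in DKO livers and 4.61 ± 0.922 RPKM in wild-type livers, with 0.88 ± 0.22 (SE, limma adjusted p = 0.0545) in DKO tumors and 0.94 ± 0.22 (0.226) in DKO livers. The receptor Notch1 averaged 2.11 ± 0.320 RPKM in DKO tumors, 2.15 ± 0.451 RPKM in DKO livers and 1.17 ± 0.453 RPKM in wild-type livers. Lymphatic genes, 4 of 6 tested, had medians of 0.05, 0.07 and -0.18 in the 3 comparisons and 0 calls. With the animal as a block 1 was called in DKO tumor against DKO liver, where 0.625% of all tested genes were.

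Kupffer cells are the macrophages that sit in the sinusoid. Their 12 genes, all tested, had 0 calls, a median of -1.49 with 12 of 12 negative in DKO tumor against DKO liver, 0.74 with 12 of 12 positive for DKO livers over wild-type livers, and -0.84 with 11 of 12 negative for DKO tumors over wild-type livers. Summed, they ranged from 90.1 to 352 RPKM in DKO tumors, 280 to 847 RPKM in DKO livers and 161 to 413 RPKM in wild-type livers. The lectin gene Clec4f had 13.5, 20.4, 81.2 and 2.63 RPKM in DKO tumors, 150, 60.3, 121 and 99.3 RPKM in DKO livers, and 28.5, 79.6, 88.9 and 40.0 RPKM in wild-type livers. Cd5l averaged 24.0 ± 21.6 RPKM in DKO tumors, 93.5 ± 50.7 RPKM in DKO livers and 47.4 ± 25.6 RPKM in wild-type livers. As mean log2 levels minus the wild-type mean, DKO tumor 4 was the lowest and DKO tumor 3 the highest DKO tumor for Kupffer cell genes, at -1.57 and 0.254. The same held for the 18 other sinusoidal genes, at -1.20 and 0.395. DKO tumors 1 and 2 were at -0.853 and -0.948 for Kupffer cell genes, and at -0.791 and -0.0793 for the sinusoidal genes. The part of Kupffer cells in the sinusoidal values, of Stab1 in particular, was not tested.

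Without a block, the remaining lists had 0 calls in all 3 comparisons. Stellate cell and pericyte genes, 11 of 12 tested, had medians of 0.17 in DKO tumors and 0.69 in DKO livers against wild-type livers. In DKO tumors against DKO livers it was -0.64, and 3 were called with the animal as a block, where 0.625% of all tested genes were. Rgs5 averaged 14.7 ± 10.4, 21.6 ± 9.18 and 16.3 ± 2.06 RPKM, and the collagen gene Col3a1 10.3 ± 7.21, 18.4 ± 11.9 and 8.32 ± 3.16 RPKM, in DKO tumors, DKO livers and wild-type livers. Cholangiocyte genes, 5 of 10 tested, had medians of 0.29, 0.71 and -0.30 for DKO tumors over wild-type livers, DKO livers over wild-type livers and DKO tumors over DKO livers; the anion exchanger Slc4a2 averaged 9.65 ± 3.03 RPKM in DKO tumors, 10.7 ± 2.19 RPKM in DKO livers and 7.50 ± 0.975 RPKM in wild-type livers. Red cell genes, 6 of 8 tested, had medians of 0.14, 0.14 and -0.02; the near-identical globin genes Hbb-b1 and Hbb-b2, whose reads cannot be assigned with certainty, averaged 77.8 ± 50.6 and 79.8 ± 51.9 RPKM in DKO tumors, 71.6 ± 25.3 and 73.5 ± 26.0 RPKM in DKO livers, and 63.9 ± 18.9 and 65.6 ± 19.4 RPKM in wild-type livers. Hepatocyte genes, 9 of 10 tested, had medians of -0.54, 0.03 and -0.27; albumin (Alb) averaged 8.09e+04 ± 2.52e+04 RPKM in DKO tumors, 5.33e+04 ± 3.28e+04 RPKM in DKO livers and 4.60e+04 ± 9.53e+03 RPKM in wild-type livers, and apolipoprotein Apoa1 1.00e+04 ± 2.80e+03, 9.59e+03 ± 1.49e+03 and 8.69e+03 ± 2.13e+03 RPKM in the same groups.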

How the data were processed

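RPKM values were deposited by the authors, 1 table per library with 21247 RefSeq transcripts; per the labels' protocols, polyadenylated RNA was sequenced with a SOLiD library kit, and the submitters' processing notes name BWA and mm9 without versions or roles. The counting tool and filters are not given in the sources used here. For 1520 symbols with several transcripts the longest was kept. In each library, at least 99.99% of RPKM values times exon length came out as whole reads (tolerance 0.05 read), which gives reads and depth. Reads carry no molecular identifiers.

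Genes that reached 0.5 RPKM in 4 or more libraries entered the test with limma 3.58.1 in R 4.3.3 on log2(RPKM + 1), with 3 group means, intensity trend and robust shrinkage; the offset of 1 understates changes of low genes. The script was tested on simulated data. Exact permutation tests used all 70 splits of 4 against 4 libraries, without the pairing by animal, 30 tests in all. Their p-values are given unadjusted. Benjamini-Hochberg adjustment over these 30 exact tests turned the smallest, 0.0286, into 0.122. Adjusted p-values elsewhere come from limma over all genes. Mean absolute differences of standardised values gave the genes most like Stab2, Esm1 and Cdh5. Alternatives were other offsets, filters, scalings, transcripts, libraries, a replicate block, the tag, and voom on recovered reads.

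DKO tumor and DKO liver of 1 number share an animal code and were paired by it. Correlations of their deviations from group means over all tested genes were 0.117, 0.347, 0.368 and 0.00285. Between unlike numbers they ranged from -0.25 to 0.154. DKO tumor 1 had a higher value with DKO liver 4 (0.154), and DKO tumor 4 with DKO liver 1 (0.0916), than with its own liver. The pairing thus rests on the codes. The members and lists were chosen with earlier results of these data known. All 10 members are named; of each other list, up to 4 called genes with the smallest limma p, or else the 2 with the highest mean. Other named genes are stated as chosen after their values were seen, or are those whose levels touch a member's result (E2f7, E2f8, Ccl21a). The symbols Esam, Mmrn1, Rgcc, Pf4, Epcam and Tf had no match in the tables.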

Additional observations from a re-analysis of the deposited data

Results flagged for a closer look

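Lyve1 in DKO tumor 3 was at 12.8 RPKM, against 0.408 to 2.14 RPKM in the other DKO tumors, a gap of 0.860 of the group's whole range. In DKO liver 3 it was at 17.3 RPKM, against 1.11 to 1.40 RPKM in the other DKO livers, a gap of 0.982 of the range. Each library stood apart from the rest of its group by Dixon's criterion, which chance meets in about 1 in 20 groups; 30 groups of 4 were examined and these 2 were the ones found. Both come from animal 3 by their code, and they rest on 476 and 555 reads. Without both libraries of that animal the log2 difference of Lyve1 stayed positive in both comparisons with wild-type liver.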

How the results depend on the processing

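For DKO tumor against wild-type liver, 1 marker (Esm1) and 216 genes were called. With no filter on low values these were 0 and 1, with the tag as a covariate 0 and 3, within 1 tag 1 and 25, with a replicate block 1 and 128, with median-of-ratios scaling 1 and 598, with quantile normalization 1 and 491, with voom on recovered reads 1 and 196, and without both libraries of animal 3, a setting chosen after seeing the data, 1 and 483. Without 1 library they ranged from 0 to 1 and from 16 to 413. For DKO liver against wild-type liver 0 markers were called in every setting run; genes called were 0, but 1 with median-of-ratios scaling, 1 over only the 8 libraries, and 0 to 2 without 1 library. For DKO tumor against DKO liver, 0 markers and 1 gene were called. These were 0 and 2 with no filter, 1 and 19 with quantile normalization (Esm1, limma adjusted p = 0.0469), 0 and 55 over only 8 libraries, 0 and 71 with the replicate block, 0 and 0 with the tag as a covariate, 3 and 180 without animal 3 (Stab2 -1.12, adjusted p = 0.0352; Esm1 2.88, 0.00164; Aqp1 -1.35, 0.0243), and 0 to 4 and 1 to 363 without 1 library. The contrast within 1 tag could not be fitted there. The difference of Esm1 and Vwf minus the pan-endothelial genes was 0.98 in DKO tumor against wild-type liver, 1.53 with an offset of 0.1 and 1.58 with voom, and 0.20 and with voom 0.584 in DKO liver against wild-type liver; without 1 library it ranged from 0.81 to 1.18, from 0.00156 to 0.362 and, in DKO tumor against DKO liver, from 0.611 to 0.983. The sinusoidal minus pan-endothelial difference ranged from -1.01 to -0.155, from 0.204 to 0.345 and from -1.27 to -0.424 in the same comparisons. Signs of uncalled differences turned in DKO tumor against DKO liver for Kdr (0.12 with median-of-ratios scaling, 0.107 with quantile normalization) and Cdh5 (0.0975, 0.0574, and 0.0247 without animal 3), and in DKO tumor against wild-type liver without animal 3 for Stab1 (-0.000684), Vwf (-0.101) and Kdr (-0.0252). Without 1 library they turned in DKO tumor against wild-type liver for Stab1 (-0.000684 to 0.374), Vwf (-0.101 to 0.334) and Kdr (-0.0252 to 0.242), in DKO liver against wild-type liver for Kdr (-0.00544 to 0.245), and in DKO tumor against DKO liver for Lyve1 (-0.891 to 0.546), Kdr (-0.153 to 0.0875) and Cdh5 (-0.33 to 0.152). The replicate numbers do not pair DKO with wild-type animals, and the block changed no other call of a marker. Apart from fewer genes or samples in a setting, the cause was not tested. Depth limits Esm1 and Lyve1 most, with 63 and 107 reads over the 4 wild-type livers.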

Other observations

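The genes below were chosen after their values were seen, from the lists of vessel genes. DKO tumor 4 was the lowest of 12 libraries for 16 of the 18 other sinusoidal genes, and the highest for 12 of 23 other pan-endothelial and 12 of 17 tip cell and sprouting genes, while it was lowest for 5.94% and highest for 15.4% of all tested genes. The sinusoidal gene Oit3 had 0.466 RPKM there, against 2.38 to 10.6 RPKM in the other DKO tumors, 5.40 to 12.5 RPKM in DKO livers and 3.92 to 7.01 RPKM in wild-type livers. Wnt2 encodes a growth factor released by central vein and sinusoidal endothelium. It had 0.0328 RPKM there, against 0.278 to 0.777 RPKM in the other DKO tumors, 0.481 to 1.87 RPKM in DKO livers and 0.927 to 1.97 RPKM in wild-type livers. In the other direction, the capillary marker Cd34 had 14.6 RPKM, against 3.48 to 4.48 RPKM in the other DKO tumors, 2.28 to 4.95 RPKM in DKO livers and 0.885 to 2.77 RPKM in wild-type livers. Endomucin (Emcn) had 10.6 RPKM, against 2.44 to 4.07 RPKM in the other DKO tumors, 1.10 to 3.29 RPKM in DKO livers and 0.831 to 1.67 RPKM in wild-type livers. The tip cell peptide Apln had 8.73 RPKM, against 1.36 to 1.51 RPKM in the other DKO tumors. Its range was 0.190 to 0.516 RPKM in DKO livers and 0.199 to 1.26 RPKM in wild-type livers. The Tie2 ligand Angpt2 had 5.35 RPKM, against 0.734 to 2.37 RPKM in the other DKO tumors. Its range was 0.392 to 3.05 RPKM in DKO livers, highest in DKO liver 3, and 0.315 to 0.397 RPKM in wild-type livers. The basement membrane collagen Col4a1 had 20.5 RPKM, against 4.07 to 7.06 RPKM in the other DKO tumors. Its range was 2.82 to 11.2 RPKM in DKO livers, highest in DKO liver 3, and 1.55 to 4.39 RPKM in wild-type livers. Within animal 4 all 17 tip cell genes were higher and all 18 other sinusoidal genes lower in the tumor than in the liver, and 31.4% of all tested genes were lower. In animal 1 all 18 sinusoidal genes were lower in the tumor too, but so were 78% of all tested genes. These values describe single libraries and carry no test.

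Over the 12 libraries, the 5 genes nearest to Stab2 by the mean absolute difference of standardised log2(RPKM + 1) were Steap2 (0.218 SD), Sdsl (0.302), Kcna2 (0.320), Gpr77 (0.321) and Ifi30 (0.326). Aqp1 had rank 7, at 0.349. Of the other sinusoidal markers Clec4g had rank 116, Stab1 rank 1138 and Lyve1 rank 6002, while Vwf had rank 291. Those nearest to Esm1 were Ccdc88c (0.232), Efnb2 (0.237), Aplp1 (0.288), AI427122 (0.291) and Mtmr11 (0.298), with Vwf at rank 5157. Those nearest to Cdh5 were Slc2a1 (0.227), Plec1 (0.248), Dusp3 (0.249), Lrrc8c (0.255) and Adam15 (0.273), with Pecam1 at rank 34 and Kdr at rank 1326. Efnb2, which encodes the arterial ligand ephrin-B2, averaged 1.87 ± 0.236 RPKM in DKO tumors, 0.938 ± 0.634 RPKM in DKO livers and 0.645 ± 0.248 RPKM in wild-type livers (SD, n = 4 each). The libraries differ in depth and group, which all genes share, so such nearness is a description only.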
